A study of Mus musculus with 16 samples.

Results

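*Fkbp5*, *Tsc22d3*, *Sgk1*, *Zbtb16*, *Pdk4*, *Hif3a* and *Plin4* are genes that glucocorticoids induce in many tissues, and *Nr3c1* encodes the glucocorticoid receptor itself. These members were chosen by symbol, for their known place in the hormone response, and 8 of 8 were found among the 18167 genes of the table. They were followed in spinal cord RNA of 16 transgenic mice, which the study used to compare the end stage of an ALS-like disease with the age before symptoms and with control animals. The mutant mice (line Tg(Prnp-PFN1*G118V)838Kiaei, on a C57BL/6N background) express human profilin 1 with the G118V change, and the control mice (line Tg(Prnp-PFN1)850Kiaei, on the same background) express human profilin 1 without it. Both kinds of mouse therefore carry a human *PFN1* transgene, inserted in the MoPrP.Xho vector behind the promoter of mouse *Prnp*. Mice without a transgene were not analysed here. The groups were mutant old (MO, 5 mice of 175 to 245 days, at end stage as judged by loss of the righting reflex), mutant young (MY, 3 mice of 50 days, before symptoms), wild-type old (WO, 5 mice of 190 to 294 days) and wild-type young (WY, 3 mice of 50 days). All mice were labelled male, and they lived under a 12-hour light and dark cycle with a fixed daily ration of chow. RNA was isolated with TRIzol, and stranded mRNA libraries were made from it in 2 batches. All young mice, MO1 to MO3 and WO1 to WO3 were in batch 1, and MO4, MO5, WO4 and WO5 were in batch 2. WO1 to WO3 were 190 days old and WO4 and WO5 were 294 days old, so batch and age cannot be told apart within WO. MO4 and MO5 were younger, at 224 and 175 days. Values of WO vs. MO within batch 2 thus set 2 mice against 2, and genotype and age cannot be told apart in them. Values are the deposited batch-corrected log2(1 + FPKM), where FPKM is the number of fragments per kilobase of transcript, scaled to the mapped reads of each library.

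Glucocorticoids, in the mouse mainly corticosterone, leave the adrenal cortex in a daily rhythm and in larger amounts under stress. They bind a receptor that chaperones of the heat shock protein family hold in the cytoplasm, and the bound receptor enters the nucleus, where it attaches to response elements in DNA and raises or lowers transcription of nearby genes. In the central nervous system neurons, glia and cells of the vessel wall all carry the receptor. Neither hormone levels nor the hour of dissection are given in the sources used here.

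The libraries held the markers of spinal cord, with mean levels of 10.43 for the neuronal gene *Snap25*, 7.47 for the myelin gene *Mog*, 7.90 for the astrocyte glutamate transporter *Slc1a2* and 3.61 for *Chat*, the acetylcholine synthesis enzyme of motor neurons. Of fat and muscle, where several of the members are abundant, the adipocyte genes *Adipoq* and *Plin1* and the muscle genes *Ckm* and *Myh4* were below 0.5 in every mouse. The other 4 of 6 muscle genes passed 0.5 in at least 1 mouse, with *Mylpf* at a mean of 1.57 and up to 2.08. Of the 4 adipocyte genes in the table, *Fabp4* reached 1.28 in MO3. *Retn*, picked after its values were seen, reached 0.79 in WO3. The mouse gene of the transgene's protein, *Pfn1*, lay between 6.50 and 7.18 in the 16 mice. Library MO5 went against its male label. Its *Xist*, the RNA made from the inactive X chromosome of females, was 3.21 against at most 0.37 in the other 15 libraries, and its Y-linked *Ddx3y* was 1.95 against at least 4.06. The *Ddx3y* value of MO5 was thus above 0 beside its *Xist*. These values are batch-corrected, and *Xist* read -0.36, -0.35 and -0.34 in MO4, WO4 and WO5, the other mice of batch 2. A value above 0 in MO5 therefore does not show that Y-linked RNA was present, and how the values arose was not tested. Library MO1 also stood apart, with a summed blood marker level of 11.7 FPKM against 43.3 to 96.8 in the others. Within WY, WY1 had a summed motor neuron marker level of 43.9 FPKM against 63.7 and 65.6 in WY2 and WY3, picked out after the values were seen.

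With all mice and no batch term, none of the 8 members passed the test for a difference in any of the 5 comparisons. In limma fits over all 18167 genes, a gene was called at a Benjamini-Hochberg FDR at or below 0.05 with a fold change of at least 1.5, and, more widely, at that FDR alone. In WO vs. MO, 0 of 8 members were called by both thresholds, against 4.6% of all genes (742 that rose and 94 that fell), and 0 of 8 by FDR alone, against 27.9%. In MY vs. MO the counts were 0 of 8 against 4.9% by both thresholds and 0 of 8 against 25.6% by FDR alone. Aging in control mice, WY vs. WO, called 0 of 8 against 0.253% by both and 0 of 8 against 1.12% by FDR alone. WY vs. MY called 0 of 8 against 0.0055% by both thresholds and 0 of 8 against 0.0055% by FDR alone. The step from MY to MO was also set against the step from WY to WO, a difference of age effects, and this called 0 of 8 against 5.61% by both thresholds and 0 of 8 against 17.7% by FDR alone. At an unadjusted limma p under 0.05 the members numbered 2 of 8 in WO vs. MO, against 6986 of 18167 over all genes, 3 in MY vs. MO (6673), 3 in WY vs. WO (2447), 2 in WY vs. MY (1301) and 0 for the difference of age effects (5655). A missed threshold does not show equal levels, and the MO mice differed widely among themselves. With MO4 left out 2 of 8 members were called in WO vs. MO, against 924 of 18167 genes by both thresholds and 4885 by FDR alone, and 3 of 8 in MY vs. MO, against 1011 and 4735. With MO1 left out 1 of 8 was called in MY vs. MO, against 899 and 5130 genes, and 1 of 8 by FDR alone in WO vs. MO, against 5141. With MO5 left out the counts stayed at 0. Other settings called some members too. With batch as a term these were *Pdk4* and *Plin4* in MY vs. MO and *Plin4* in WY vs. WO, in batch 1 mice alone *Pdk4* and *Plin4* in MY vs. MO, and with all 4 groups in 1 fit *Pdk4* in WO vs. MO and in MY vs. MO. With the replicate number as a block up to 3 of 8 were called. Over all genes these fits called by both thresholds 1104 in MY vs. MO and 80 in WY vs. WO with batch as a term, 1099 in MY vs. MO in batch 1 mice alone, 838 and 897 in WO vs. MO and MY vs. MO with all 4 groups in 1 fit, and, in MY vs. MO with the block, 1108.

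The members' median log2 fold change, with the second group minus the first, was 0.24 in WO vs. MO, 0.62 in MY vs. MO, 0.34 in WY vs. WO and 0.07 in WY vs. MY, where the median over all genes was 0.00, 0.00, 0.00 and 0.00. For the difference of age effects the medians were 0.20 for the members and 0.01 for all genes. The number of members higher in the second group was 5, 6, 7 and 6 of 8 in the same order of comparisons. With 1 mouse left out in turn, the members' median ran from 0.03 (without MO1) to 0.50 (without MO4) in WO vs. MO, from 0.37 (without MO1) to 0.81 (without MO4) in MY vs. MO, from 0.22 (without WO1) to 0.44 (without WY1) in WY vs. WO, from 0.03 (without MY1) to 0.15 (without WY1) in WY vs. MY and from -0.00815 (without MO1) to 0.40 (without MO4) for the difference of age effects. In WO vs. MO it was 0.04 without WO5, 0.09 without MO5 and 0.07 in batch 1 mice alone. These comparisons share groups, so their values are set side by side and not combined. The tissue was profiled whole, and fewer cells of a type and less RNA per cell cannot be told apart in such values.

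**Figure D1:**
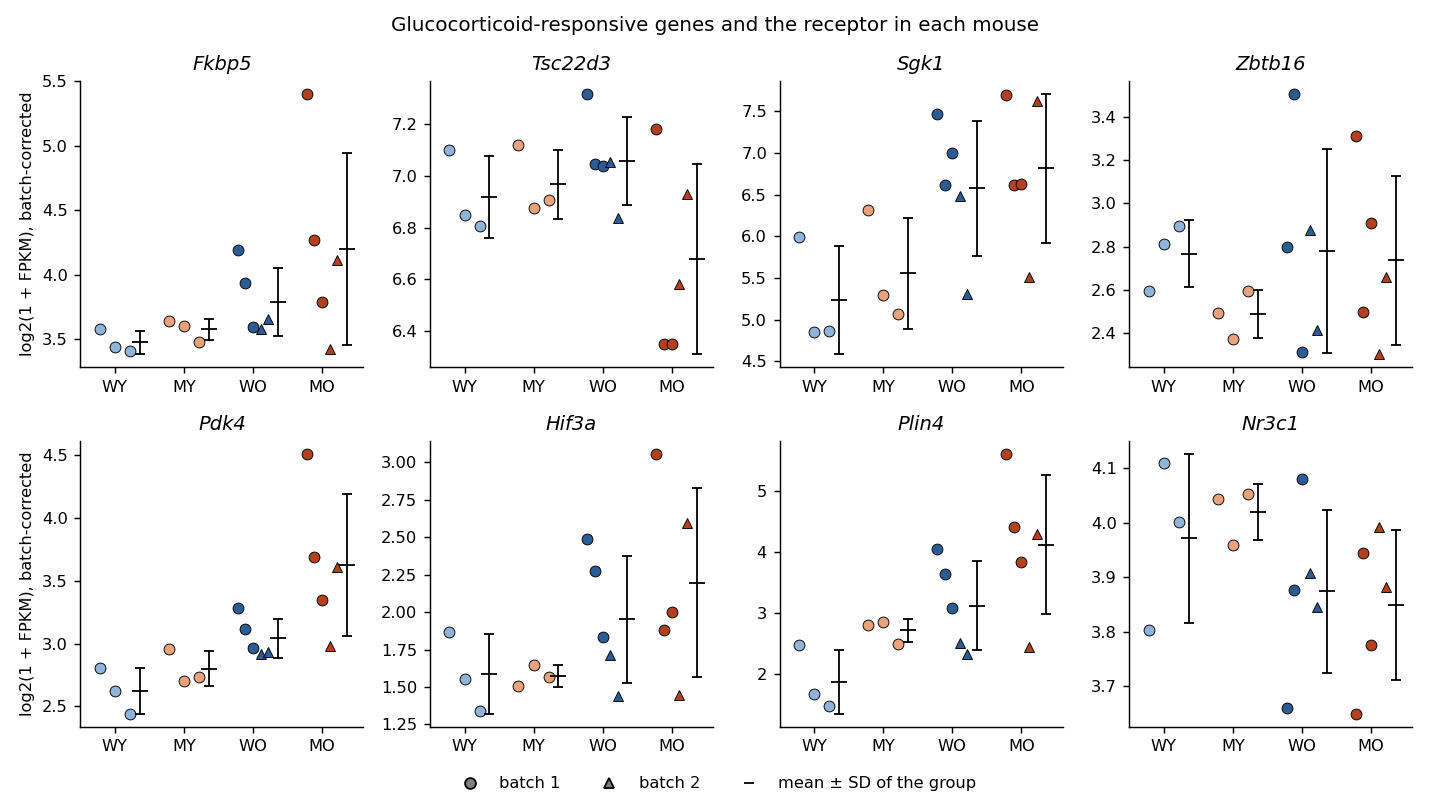
Level of each of the 8 members in each of the 16 mice, as batch-corrected log2(1 + FPKM) on the vertical axis, by group on the horizontal axis, with circles for batch 1, triangles for batch 2 and a bar for the mean ± SD of each group. For *Fkbp5*, *Pdk4* and *Plin4* the MO mice spread more widely than any other group, with MO1 highest and MO4 lowest.

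The receptor gene *Nr3c1* had the narrowest range of the 8 members. It read 3.80, 4.11 and 4.00 in WY1 to WY3 and 4.04, 3.96 and 4.05 in MY1 to MY3. In the old mice it read 3.66, 3.88, 4.08, 3.91 and 3.85 in WO1 to WO5 and 3.65, 3.94, 3.78, 3.99 and 3.88 in MO1 to MO5. All 16 mice thus lay within 3.65 to 4.11, the groups overlapped in all 4 comparisons, and the lowest mouse of WY, WO and MO was in each case the mouse numbered 1. The log2 fold change in WO vs. MO was -0.02 (SE 0.08, limma FDR 0.869), and its values within batch 1 and batch 2 were -0.08 and 0.06. In MY vs. MO it was -0.17 (SE 0.08, limma FDR 0.153).

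Of 8 genes of the receptor complex, which were the mineralocorticoid receptor *Nr3c2* and chaperones or co-chaperones, 0 were called by both thresholds in any comparison. Over all genes that share ran from 0.0055% in WY vs. MY to 5.61% for the difference of age effects. By FDR alone 2 of 8 were lower in WO vs. MO, against 27.9% of all genes in either direction, among them the chaperone *Hsp90ab1* (-0.17, limma FDR 0.0222), while the more abundant *Hspa8* stood at 0.00 (FDR 0.972). The count by FDR alone was 1 without MO1, MO5 or WO3, 0 without MO3 or in batch 1 mice alone, 3 without MO4 and 5 after quantile normalization. The list's median was -0.15 in WO vs. MO. Of 7 coregulators 0 were called by either rule in WO vs. MO in limma, with 2 of 7 at an unadjusted p under 0.05, against 6986 of 18167 over all genes. The corepressor gene *Ncor1* stood at 0.03 (limma FDR 0.780) and the coactivator gene *Ncoa1* at -0.06 (FDR 0.511). The coregulators' median was -0.06.

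Among 6 genes of glucocorticoid metabolism and transport, 1 fell past both thresholds in WO vs. MO, against 4.6% of all genes called in either direction, and 3 of 6 were called by FDR alone, against 27.9%. This was *Hsd11b1*, the enzyme that regenerates active hormone from its inert form inside cells, at 4.94 ± 0.19 (SD, n = 5) in WO and 4.15 ± 0.47 (SD, n = 5) in MO (log2 fold change -0.80, SE 0.20, limma FDR 0.0134). It read 4.69, 5.19, 4.85, 4.93 and 5.05 in WO1 to WO5 and 3.51, 4.43, 4.11, 4.74 and 3.94 in MO1 to MO5, so that MO1 was lowest, MO4 was highest of the MO mice and the 2 old groups overlapped only by MO4 and WO1. In batch 1 mice alone it was not called by both thresholds. The transporter genes *Abcb1a* (-0.42, limma FDR 0.00122) and *Abcb1b* (0.38, FDR 0.00344) passed by FDR alone, in opposite directions, and were picked after their values were seen. *Hsd11b2*, which inactivates the hormone, had a mean of 0.16 and was below 0.5 in every mouse. *Srd5a1*, a steroid reductase that clears glucocorticoids, fell with age in both genotypes, by 0.67 on the log2 scale in WY vs. WO (limma FDR 0.00581) and by 0.65 in MY vs. MO (limma FDR 0.0333). In MY vs. MO the call by both thresholds was lost without MO1, MO2, MO3, MY1, MY2 or MY3. Its difference of age effects was 0.02 (FDR 0.958). The oligodendrocyte marker *Mog* fell in the same comparisons, by 0.77 in WY vs. WO (limma FDR 0.0178) and by 0.93 in MY vs. MO (FDR 0.0118). In both, 1 of 4 such markers fell past both thresholds and 2 by FDR alone. Over all genes, in either direction, the shares were 0.253% and 1.12% in WY vs. WO and 4.9% and 25.6% in MY vs. MO. The part of oligodendrocytes in the values of *Srd5a1* was not tested. The list's median was 0.04 in WO vs. MO.

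*Fkbp5* encodes a co-chaperone that the receptor induces and that lowers the receptor's affinity for hormone, a short feedback loop. It read 3.58, 3.44 and 3.41 in WY1 to WY3 and 3.64, 3.60 and 3.48 in MY1 to MY3. The values in old mice were 4.19, 3.93, 3.59, 3.58 and 3.66 in WO1 to WO5 and 5.40, 4.26, 3.79, 3.42 and 4.11 in MO1 to MO5. The young mice lay close together, every WO mouse lay above the highest WY mouse, by little for WO4, and the MO mice ran from below every MY mouse (MO4) to far above every other animal (MO1). The SD was 0.09 in WY, 0.08 in MY, 0.26 in WO and 0.75 in MO. The log2 fold change was 0.41 in WO vs. MO (SE 0.31, limma FDR 0.383) and 0.62 in MY vs. MO (SE 0.38, limma FDR 0.277). Without MO1 these were 0.11 (FDR 0.726) and 0.32 (FDR 0.245), and without MO5 the first was 0.43 (FDR 0.424). Within batch 1 the WO to MO difference was 0.58 and within batch 2 it was 0.15.

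*Tsc22d3* encodes GILZ, a leucine zipper protein through which glucocorticoids dampen inflammatory signalling. It was the most abundant member, and the only one of the 7 targets whose mean was lowest in MO. It read 7.10, 6.85 and 6.81 in WY1 to WY3 and 7.12, 6.88 and 6.91 in MY1 to MY3. In the old mice it read 7.32, 7.05, 7.04, 7.05 and 6.84 in WO1 to WO5 and 7.18, 6.35, 6.35, 6.58 and 6.93 in MO1 to MO5. MO2, MO3 and MO4 were lower than every other mouse of the study, MO1 and MO5 lay among the controls, and the groups overlapped. The log2 fold change in WO vs. MO was -0.38 (SE 0.16, limma FDR 0.108), with -0.51 within batch 1 and -0.19 within batch 2. Without MO1 it fell by 0.51 (limma FDR 0.0171), past the FDR threshold but under a fold change of 1.5, and without MO5 it was -0.44 (FDR 0.0853). The unadjusted limma p with all mice was 0.0390.

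*Zbtb16*, which encodes the transcriptional repressor PLZF, read 2.59, 2.81 and 2.89 in WY1 to WY3 and 2.49, 2.37 and 2.59 in MY1 to MY3. At the later ages it read 2.80, 3.51, 2.31, 2.88 and 2.41 in WO1 to WO5 and 3.31, 2.50, 2.91, 2.30 and 2.66 in MO1 to MO5. All 3 WY mice reached or passed the highest MY mouse, whereas WO and MO overlapped almost entirely. Its log2 fold change was -0.28 in WY vs. MY (SE 0.09, limma FDR 0.657), -0.05 in WO vs. MO (SE 0.24, limma FDR 0.922) and 0.25 in MY vs. MO (SE 0.20, limma FDR 0.427). Without MO1 the last 2 were -0.19 (FDR 0.597) and 0.10 (FDR 0.625).

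*Sgk1*, a serum- and glucocorticoid-regulated kinase with roles in ion transport and cell survival, had, with *Plin4*, the largest differences between ages in both genotypes. It read 5.99, 4.86 and 4.86 in WY1 to WY3 and 6.31, 5.29 and 5.06 in MY1 to MY3. Old mice read 7.47, 6.62, 6.997, 6.49 and 5.30 in WO1 to WO5 and 7.69, 6.61, 6.63, 5.52 and 7.63 in MO1 to MO5. The old mice were mostly higher than the young ones, but WO5 and MO4, both of batch 2, lay at the level of young mice, so the ages overlapped. On the log2 scale the difference was 1.34 in WY vs. WO (SE 0.47, limma FDR 0.249) and 1.26 in MY vs. MO (SE 0.51, limma FDR 0.109). In batch 1 mice alone these were 1.79 (FDR 0.0977) and 1.42 (FDR 0.0503), and no batch 2 mouse was young. Without MO4 the second was 1.59 (limma FDR 0.0223), past both thresholds. The WO vs. MO value was 0.24 (SE 0.47, limma FDR 0.768), with -0.05 within batch 1 and 0.68 within batch 2, and the difference of age effects was -0.08 (FDR 0.962). Without MO1 the WO vs. MO value was 0.02 (FDR 0.983).

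*Pdk4* encodes pyruvate dehydrogenase kinase 4, which shifts cells from glucose to fatty acid use. It read 2.80, 2.62 and 2.44 in WY1 to WY3 and 2.96, 2.70 and 2.73 in MY1 to MY3. The old groups read 3.28, 3.11, 2.97, 2.91 and 2.93 in WO1 to WO5 and 4.51, 3.69, 3.35, 2.98 and 3.61 in MO1 to MO5. No old mouse overlapped with the young mice of its own genotype, and 4 of 5 MO mice lay above every WO mouse. The fitted log2 fold change was 0.59 in WO vs. MO (SE 0.23, limma FDR 0.0857), 0.83 in MY vs. MO (SE 0.29, limma FDR 0.0704) and 0.42 in WY vs. WO (SE 0.11, limma FDR 0.123). Its within-batch values for WO vs. MO were 0.73 in batch 1 and 0.37 in batch 2. It was called in WO vs. MO without MO4 (0.75, limma FDR 0.0229), and in MY vs. MO without MO1 (0.61, FDR 0.0302), without MO4 (0.99, FDR 0.0246) in batch 1 mice alone (1.05, FDR 0.0387) and with batch as a term (1.05, FDR 0.0365). The WO vs. MO value was 0.37 without MO1 (FDR 0.0831) and 0.59 without MO5 (FDR 0.128).

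*Plin4*, a coat protein of lipid droplets, had the widest range of all members. It read 2.47, 1.67 and 1.48 in WY1 to WY3 and 2.80, 2.86 and 2.49 in MY1 to MY3. Values in the old groups were 4.06, 3.64, 3.08, 2.51 and 2.32 in WO1 to WO5 and 5.62, 4.41, 3.84, 2.44 and 4.30 in MO1 to MO5. Every MY mouse passed the highest WY mouse, MO1, MO2 and MO5 passed the highest WO mouse, and MO4 lay below every MY mouse. Its log2 fold change was 1.00 in WO vs. MO (SE 0.53, limma FDR 0.199), 1.41 in MY vs. MO (SE 0.58, limma FDR 0.116), 1.25 in WY vs. WO (SE 0.42, limma FDR 0.228) and 0.84 in WY vs. MY (SE 0.26, limma FDR 0.641). Within batches the WO vs. MO difference was 1.03 in batch 1 and 0.95 in batch 2. Without MO4 it was called in WO vs. MO (1.42, limma FDR 0.0354) and in MY vs. MO (1.83, FDR 0.0107), and in batch 1 mice alone in MY vs. MO (1.91, FDR 0.0202). With batch as a term it was called in MY vs. MO (1.91, limma FDR 0.0417) and in WY vs. WO (1.72, FDR 0.0444). Without MO1 and without MO5 the WO vs. MO value was 0.63 (FDR 0.370) and 0.95 (FDR 0.286).

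*Hif3a*, a member of the hypoxia-inducible factor family, was the least abundant of the 8. It read 1.87, 1.55 and 1.34 in WY1 to WY3 and 1.51, 1.65 and 1.57 in MY1 to MY3. Among old mice it read 2.49, 2.28, 1.83, 1.71 and 1.44 in WO1 to WO5 and 3.06, 1.88, 2.00, 1.45 and 2.59 in MO1 to MO5. WO1, WO2, MO1 and MO5 were high, MO4 and WO5 were at the level of young mice, and all groups overlapped. The log2 fold change was 0.25 in WO vs. MO (SE 0.30, limma FDR 0.608), 0.62 in MY vs. MO (SE 0.32, limma FDR 0.199) and 0.36 in WY vs. WO (SE 0.24, limma FDR 0.576). Without MO1 the first was 0.03 (FDR 0.949) and the second 0.41 (FDR 0.236). With 1 mouse left out in turn the highest values were 0.43 and 0.81.

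The extremes fell on the same animals from gene to gene. The mouse numbered 1 was highest in 4 of 4 groups for *Fkbp5*, *Tsc22d3*, *Sgk1* and *Pdk4*, in 3 of 4 for *Hif3a* and *Plin4*, and in 1 of 4 for *Zbtb16*. MO4 was the lowest MO mouse for *Fkbp5*, *Sgk1*, *Zbtb16*, *Pdk4*, *Hif3a* and *Plin4*. In days, the ages of MO1 to MO5 were 198, 190, 245, 224 and 175. For *Fkbp5*, *Pdk4* and *Plin4*, picked after their values were seen, the 3 younger of these mice lay above the 2 older ones. For the other members they did not, and a relation with age was not tested. What the number 1 stands for beyond a label is not given in the sources used here.

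Among mice of the same group, several members varied with *Fkbp5*. Each value was taken minus its group mean, and *Fkbp5* was set against each of the other 7 members over 16 mice, with permutations within groups and adjustment over the 7 relations. The closest relation was with *Pdk4* (r = 0.975, permutation p = 3e-05 and BH-adjusted p = 0.00021; rho = 0.897, permutation p = 0.0001 and BH-adjusted p = 0.0007), followed by *Plin4* (r = 0.894, permutation p = 0.00038 and BH-adjusted p = 0.00133; rho = 0.888, permutation p = 0.00024 and BH-adjusted p = 0.00084). *Hif3a* came next (r = 0.834, permutation p = 0.00296 and BH-adjusted p = 0.00691; rho = 0.688, permutation p = 0.0243 and BH-adjusted p = 0.0566). In each of these 3 relations, mice with high *Fkbp5* for their group had high values of the other gene too. *Sgk1* was related more loosely (r = 0.624, permutation p = 0.0253 and BH-adjusted p = 0.0354; rho = 0.579, permutation p = 0.0397 and BH-adjusted p = 0.0695), and *Tsc22d3* (r = 0.689, permutation p = 0.0485 and BH-adjusted p = 0.0566; rho = 0.535, permutation p = 0.0864 and BH-adjusted p = 0.101) and *Zbtb16* (r = 0.571, permutation p = 0.0573 and BH-adjusted p = 0.0573; rho = 0.297, permutation p = 0.357 and BH-adjusted p = 0.357) did not pass the adjusted threshold. The receptor gene ran the other way, with low *Nr3c1* where *Fkbp5* was high (r = -0.635, permutation p = 0.0103 and BH-adjusted p = 0.0181; rho = -0.541, permutation p = 0.0686 and BH-adjusted p = 0.096). By Pearson's r 5 of 7 relations passed, and by Spearman's rho the relations with *Pdk4* and *Plin4* did.

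After the group means were taken off, MO1 and MO4 lay farthest from the median of *Fkbp5*. Without them r was 0.872 for *Pdk4*, 0.853 for *Plin4*, 0.644 for *Hif3a*, 0.494 for *Sgk1*, 0.492 for *Tsc22d3*, 0.134 for *Zbtb16* and -0.440 for *Nr3c1* over 14 mice. Only the relations with *Pdk4* and *Plin4* then passed the threshold (BH-adjusted permutation p = 0.00266 and 0.00472), and the relations with *Hif3a*, *Sgk1* and *Nr3c1* lost their call. In the 12 mice of batch 1, r was 0.963 for *Pdk4*, 0.921 for *Plin4*, 0.894 for *Hif3a*, 0.909 for *Tsc22d3*, 0.615 for *Sgk1*, 0.444 for *Zbtb16* and -0.564 for *Nr3c1*, and batch 2 held too few mice for a value. In batch 1 the relation with *Nr3c1* lost its call (BH-adjusted permutation p = 0.147) and that with *Tsc22d3* gained one (p = 0.0140). In the 11 mice of WY, MY and WO, r was 0.829 for *Pdk4* (BH-adjusted permutation p = 0.0190), 0.877 for *Plin4* (p = 0.0223), 0.856 for *Hif3a* (p = 0.0355), 0.707 for *Tsc22d3* (p = 0.0483), 0.578 for *Sgk1* (p = 0.157), 0.348 for *Zbtb16* (p = 0.551) and -0.739 for *Nr3c1* (p = 0.0372), so that *Sgk1* lost its call and *Tsc22d3* gained one. This choice of mice was made after the data were seen. Among the other pairs of members the closest were *Hif3a* with *Plin4* (r = 0.917) and *Pdk4* with *Plin4* (r = 0.905), given as descriptions with no test.

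**Figure D2:**
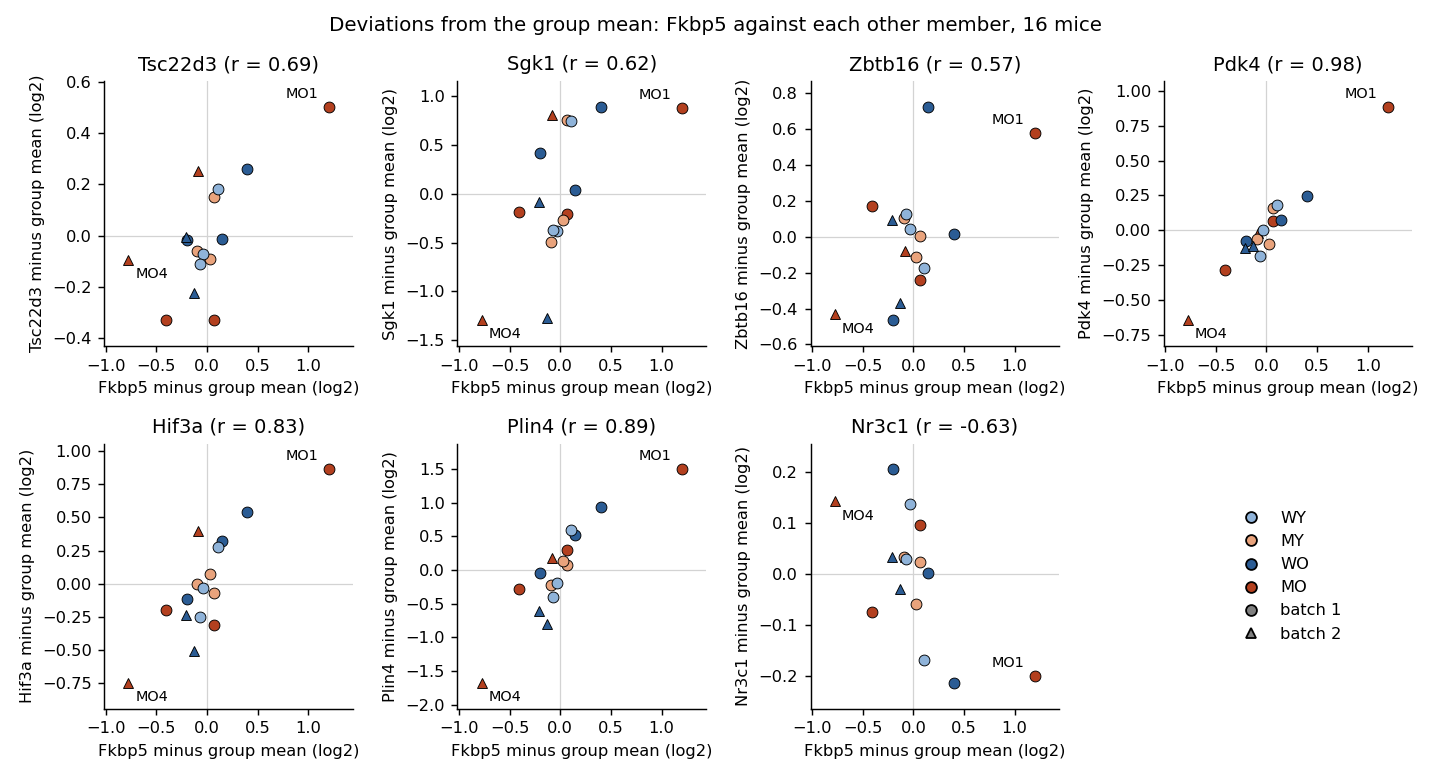
Value of each other member minus its group mean against *Fkbp5* minus its group mean, both in log2 units, for 16 mice, with colours for groups, circles for batch 1 and triangles for batch 2. MO1 and MO4 are named at the ends of the *Fkbp5* axis, and the points lie closest to a line for *Pdk4*.

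Over the 13530 genes with a mean of at least 1, the genes outside the member list whose deviations from the group mean were most like those of *Fkbp5* in the 16 mice were *Pnpla2* (0.976), which encodes the main lipase of stored triglyceride, *Pnpla7* (0.961), *Mfsd2a* (0.954), a transporter of lysophosphatidylcholine at the blood-brain barrier, *Zfand4* (0.946) and *Fbxo31* (0.941), each with Pearson's r in parentheses. *Pnpla2* read 4.39, 4.06, 3.89, 3.93 and 4.01 in WO1 to WO5 and 5.49, 4.46, 4.06, 3.94 and 4.50 in MO1 to MO5. As with *Fkbp5*, MO1 was highest and MO4 lowest of the MO mice. For the mean of the 7 targets, each scaled to its own spread, the most alike were *Map3k6* (0.971), *Klf13* (0.962), *Cdkn1a* (0.957), the cell cycle inhibitor p21, *Pnpla7* (0.956) and *Sh2b2* (0.954). Without MO1, r with *Fkbp5* was 0.917 for *Pnpla2*, 0.919 for *Pnpla7*, 0.907 for *Mfsd2a*, 0.801 for *Zfand4* and 0.801 for *Fbxo31*, and the last 2 moved to ranks 47 and 48. Those alike to the mean of the targets stayed among the highest 7. These coefficients were the highest of 13530 and carry no test.

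The wider set of glucocorticoid-induced genes gave a split picture. Of 24 further targets known from other tissues, all 24 were in the table. In WO vs. MO 6 of 24 rose past both thresholds, against 742 of 18167 over all genes, and 0 fell, and the list's median log2 fold change was 0.23, against 0.00 over all genes. They were the transcription factor gene *Cebpd* (1.64, SE 0.21, limma FDR 0.000234), the metallothioneins *Mt1* (1.48, SE 0.17, FDR 0.000144) and *Mt2* (1.44, SE 0.17, FDR 0.000152), the sulfotransferase *Sult1a1* (1.43, SE 0.46, FDR 0.0414), and, outside the rule for naming, *Angptl4* (0.70, FDR 0.0235) and *Fam107a* (0.73, FDR 0.0494). *Cebpd*, *Mt1* and *Mt2* also respond to cytokines, and metallothioneins respond to metals. The count was 3 of 24 without MO1, MO2, WO2, WO4 or WO5, 4 without MO5 or WO3, and 3 in batch 1 mice alone. In MY vs. MO 4 of 24 rose past both thresholds, against 747 of 18167 (median 0.47), with 9 without MO4 and 5 without MO1. In WY vs. WO and WY vs. MY 0 of 24 were called in either direction, with medians of 0.28 and 0.06, and for the difference of age effects 3 of 24 had a higher value in the mutants, against 845 of 18167 (median 0.13). These were *Cebpd*, *Mt1* and *Mt2*.

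*Mt1* and *Cebpd* were named because they were called, so their values in WO and MO are a description and not separate support for the call. *Cebpd* read 2.10, 1.44, 1.71, 0.96 and 1.09 in WO1 to WO5 and 3.41, 3.05, 3.18, 2.75 and 3.13 in MO1 to MO5. *Mt1* read 9.98, 10.16, 10.03, 9.50 and 9.57 in WO1 to WO5 and 11.57, 11.65, 11.29, 10.85 and 11.26 in MO1 to MO5. For both genes every MO mouse lay above every WO mouse, MO4 included. *Sult1a1* read 3.52, 3.08, 2.95, 2.67 and 2.33 in WO1 to WO5 and 5.81, 4.94, 3.49, 3.12 and 4.32 in MO1 to MO5. In *Sult1a1* and *Cebpd* alike, MO1 was highest and MO4 lowest of the MO mice. The 24 targets also differed in how they followed *Fkbp5* within groups. Of the 23 with a mean of at least 1, 17 had a group-centred r of 0.5 or more with *Fkbp5*, against 9.72% of all such genes, and the median r was 0.705 against -0.0253. The r was 0.931 for *Sult1a1*, and 0.572, 0.470 and 0.569 for *Mt1*, *Mt2* and *Cebpd*. Without MO1 17 of 23 again reached 0.5, against 7.18% of all, with a median of 0.637. What else the mice with high values had in common was not tested.

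**Figure D3:**
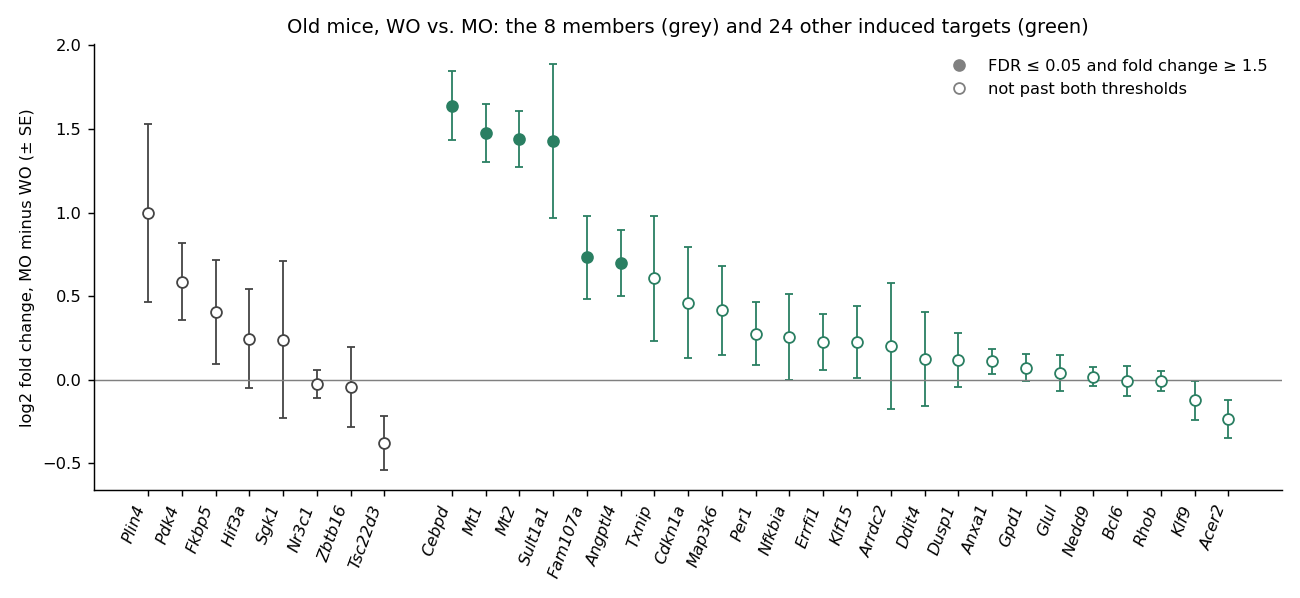
Log2 fold change in WO vs. MO (MO minus WO) with its limma SE for the 8 members, in grey, and the 24 other induced targets, in green, each ordered from high to low. Filled points passed both thresholds, which 6 of the 24 and 0 of the 8 did.

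Of 9 inflammatory genes that glucocorticoids repress in other settings, all in the table, 3 rose and 1 fell past both thresholds in WO vs. MO, against 742 and 94 of 18167 over all genes, with a list median of 0.28. The adhesion molecule *Icam1* rose by 1.48 (limma FDR 3.81e-05), the chemokine *Ccl2* by 1.46 (FDR 0.000105) and the cytokine *Il1b* by 0.64 (FDR 0.00121), whereas the protease *Mmp9* fell by 0.70 on the log2 scale (FDR 5.05e-05). *Il1b* lay near 0, with a mean of 0.12 in WO and 0.77 in MO. Without MO2 2 of 9 rose. *Il6*, *Tnf*, *Ptgs2* and *Nos2* were below 0.5 in every mouse. Microglial markers rose with these genes. Of 5, 3 rose past both thresholds in WO vs. MO, again against 742 of 18167, which were *Aif1* (1.75, FDR 0.000305), *Csf1r* (1.28, FDR 1.50e-05) and *Cx3cr1* (1.14, FDR 9.98e-05), with *Tmem119* at 0.49 (FDR 0.00298). Their summed level, led by *Csf1r*, was 71.7, 74.7, 75.5, 64.6 and 60.0 FPKM in WO1 to WO5 and 133.8, 164.1, 168.6, 133.8 and 136.9 in MO1 to MO5, with no marker below 0.5 in every mouse. The part of these cells in the list's values was not tested.

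The microglial markers had group-centred r with *Fkbp5* of 0.438 for *Csf1r*, -0.384 for *Aif1*, -0.384 for *Cx3cr1*, 0.189 for *Tmem119* and -0.399 for *P2ry12*. Without MO1 these were 0.317, 0.315, 0.3004, 0.749 and 0.0494. The astrocyte markers *Aqp4* (0.83, limma FDR 0.000244) and *Aldh1l1* (0.69, FDR 0.000230) were the 2 of 5 that rose past both thresholds in WO vs. MO, beside the same 742 of 18167. Within groups r with *Fkbp5* was 0.881 for *Aldh1l1*, 0.665 for *Slc1a3*, 0.491 for *Gja1*, 0.295 for *Slc1a2* and -0.680 for *Aqp4*, so 4 of 5 were positive. Without MO1 these were 0.790, 0.0906, 0.112, -0.0399 and -0.284. The astrocyte sum, led by *Slc1a2*, was 498.2, 540.0, 576.8, 570.9 and 518.5 FPKM in WO1 to WO5 and 746.4, 778.5, 695.7, 680.1 and 703.2 in MO1 to MO5. The haemoglobin gene *Hba-a1* had a group-centred r of -0.767 with *Fkbp5*, and *Alas2*, of haem synthesis in red cells, -0.713, and both rested on MO1, without which r was 0.0283 and -0.0845. The blood sum, led by *Hba-a1*, was 65.2, 62.3 and 71.3 FPKM in WY1 to WY3, 50.0, 68.5 and 51.8 in MY1 to MY3, 96.8, 62.8, 61.1, 95.1 and 79.3 in WO1 to WO5 and 11.7, 64.4, 60.4, 60.5 and 43.3 in MO1 to MO5. *Hba-a2* and *Hbb-bs* were listed near 0 throughout, 4 of 5 blood markers were in the table, and 0 were called in any comparison. Over all genes the share by FDR alone ran from 0.0055% in WY vs. MY to 27.9% in WO vs. MO. Of the 4 oligodendrocyte markers, 0 passed both thresholds in WO vs. MO, and *Mog*, at -0.30 there (limma FDR 0.239), had an r of -0.784 with *Fkbp5*, *Mag* -0.818, *Mobp* 0.170 and *Mbp* -0.0298. Without MO1 these were -0.619, -0.552, -0.103 and 0.140. The oligodendrocyte sum, led by *Mbp*, was 7181, 6568, 6365, 1058 and 20071 FPKM in WO1 to WO5 and 5222, 5249, 5553, 18632 and 18934 in MO1 to MO5. All of batch 2 stood apart in *Mbp*, with 5.36 in WO4 and 14.22, 14.11 and 14.14 in WO5, MO4 and MO5, against 12.16 to 13.23 in the 12 mice of batch 1, values picked out after they were seen. The sums and the r of *Mbp* include these mice. The part of astrocytes, blood or oligodendrocytes in the members' values was not tested.

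Of 6 endothelial markers 0 passed both thresholds in WO vs. MO, though all 6 lay lower in MO (median -0.47), with *Ly6c1* at -0.40 (limma FDR 0.132) and *Cldn5* at -0.40 (FDR 0.115). By FDR alone 4 of 6 were lower, against 27.9% of all genes in either direction. Of 5 motor neuron markers 1 fell past both thresholds, *Chat* (-0.67, FDR 3.13e-05), and 4 by FDR alone. Of 5 neuronal markers 1 fell past both, the neurofilament gene *Nefl* (-0.75, FDR 0.000352), and 3 by FDR alone, with 1 of 5 higher in MO. Over all genes the shares were 4.6% and 27.9% in either direction. The Schwann cell markers *Ncmap* and *Pmp2* and the meningeal markers *Dcn* and *Col1a2* stood at 0.00, -0.08, 0.03 and 0.05, none called. The muscle genes *Mylpf* and *Acta1* stood at -0.15 (FDR 0.597) and -0.25 (FDR 0.0455), and *Acta1* was lower by FDR alone. Of 7 adipocyte genes 4 were in the table, and *Fabp4*, also made by macrophages and vessels, rose by 0.72 (FDR 0.00592), with 1.28 in MO3, its highest mouse. *Adipoq* and *Plin1* reached at most 0.14 and 0.09 in any mouse, and *Retn*, picked after its values were seen, at most 0.79. MO1, the mouse with the most *Plin4*, read 0.92 for *Fabp4*, 0.003 for *Adipoq* and 0.08 for *Plin1*. The part of fat in the values of *Plin4* was not tested.

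Fasting, the body clock and neuronal activity also regulate some of the members in other settings, and were read from lists of their own. As said above, 4.6% of all genes passed both thresholds in WO vs. MO. Of 9 genes induced by fasting 1 rose past them, the mitochondrial carrier *Ucp2* (1.34, SE 0.18, limma FDR 0.000323), and the list's median was 0.10. *Ucp2* read 5.50, 5.18, 5.16, 5.00 and 4.91 in WO1 to WO5 and 7.03, 6.53, 6.45, 5.95 and 6.48 in MO1 to MO5. Every MO mouse passed every WO mouse, and within groups the gene followed *Fkbp5* (r = 0.885, and 0.833 without MO1). Of the 9, 4 had r of 0.5 or more with *Fkbp5*, against 9.72% of all genes with a mean of at least 1. Without MO1 it was 2, against 7.18%. With all mice 1 of the 9 had r of -0.5 or less, against 9.99%. Of 12 clock genes 0 were called in any comparison by either rule. Over all genes the shares by FDR alone were 27.9% in WO vs. MO, 25.6% in MY vs. MO and 17.7% for the difference of age effects. In WY vs. WO and WY vs. MY they were 1.12% and 0.0055%. By both thresholds the shares ran from 0.0055% to 5.61%. The r of the clock genes with *Fkbp5* was 0.5 or more for 0, against 9.72% of all genes with a mean of at least 1. It was -0.5 or less for 1, against 9.99%, and the median was 0.109. Without MO1 r was 0.5 or more for 1 (*Npas2*, 0.574), against 7.18% of all such genes. It was -0.5 or less for 3 (*Dbp*, *Nr1d1*, -0.644, and *Nr1d2*, -0.501), for which no share over all genes was taken. The median was then -0.294. The most abundant, *Tef* and *Nr1d2*, stood at -0.07 (FDR 0.529) and -0.12 (FDR 0.0768) in WO vs. MO. The clock output gene *Dbp*, which swings widely over the day, had an r of -0.509 with *Fkbp5*, and -0.682 without MO1. MO2 lay outside the range of the other 15 mice in 10 of the 12 clock genes, above it for *Arntl*, *Npas2* and *Cry1* and below it for *Nr1d1*, *Dbp*, *Tef*, *Hlf*, *Per2*, *Per3* and *Ciart*. Its *Dbp* was 2.97 against at least 3.77 in the others, and its *Arntl* 3.27 against at most 2.96. The part of this mouse in the r values was not tested. Apart from *Tef* and *Nr1d2*, the clock genes named here were chosen after their values were seen. Of 8 immediate early genes 2 rose past both thresholds in WO vs. MO, *Egr2* (0.82, FDR 6.97e-05) and *Junb* (0.75, FDR 0.000983), and 1 fell by FDR alone. Of the 6 with a mean of at least 1, 1 had r of 0.5 or more with *Fkbp5*, against 9.72% of all such genes. Without MO1 it was 0, against 7.18%. With all mice 1 of the 6 had r of -0.5 or less, against 9.99%.

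The 8 genes lie on 7 chromosomes, with *Fkbp5* and *Plin4* both on chromosome 17 (chr17:28399094-28517527 and chr17:56100591-56109803, minus strand, GRCm38). The receptor binds a palindrome of 2 arms of 6 letters set 3 letters apart. RefSeq promoter windows of GRCm38.p6, each with 250 bases before a transcript start and 50 after it, were matched by symbol for 6 of the 8 members (*Fkbp5*, *Hif3a*, *Pdk4*, *Plin4*, *Sgk1* and *Tsc22d3*), 13 windows in all, and not for *Nr3c1* and *Zbtb16*. The full palindrome, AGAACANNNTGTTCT, was found in 3 of 32851 windows of the table (0.00913%), and 1 of these was a window of *Sgk1*. The single arm AGAACA, on either strand and including the arms of the palindrome, was found in 19.0% of windows and in 4 of the 13 windows of the members, 3 of *Sgk1* and 1 of *Tsc22d3*. The *Sgk1* window with the palindrome and the *Tsc22d3* window with an arm are shown up to the transcript start, 5' to 3' along the gene, since they hold the letters that were searched. Capitals mark each arm.
*Sgk1*, chr10:21993640-21993889, plus strand, GRCm38.p6: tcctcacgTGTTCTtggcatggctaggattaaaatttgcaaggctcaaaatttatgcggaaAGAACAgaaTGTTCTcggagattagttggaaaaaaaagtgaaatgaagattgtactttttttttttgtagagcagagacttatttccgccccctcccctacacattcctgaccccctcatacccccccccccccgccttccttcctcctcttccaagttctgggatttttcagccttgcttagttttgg
*Tsc22d3*, chrX:140600523-140600772, minus strand, GRCm38.p6: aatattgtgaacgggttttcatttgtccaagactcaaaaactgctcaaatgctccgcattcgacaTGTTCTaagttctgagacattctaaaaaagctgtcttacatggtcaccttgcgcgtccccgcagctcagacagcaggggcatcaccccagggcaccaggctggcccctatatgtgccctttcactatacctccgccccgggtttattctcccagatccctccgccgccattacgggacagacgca
In *Sgk1* the palindrome lies at chr10:21993701-21993715, bases 62 to 76 of the window, and a further arm begins at base 9. In *Tsc22d3* the arm begins at base 66. *Sgk1* has 6 windows, 1 for each listed start, and the expression values join all of its transcripts. *Fkbp5*, *Pdk4*, *Plin4* and *Hif3a*, the genes that varied together most closely, hold neither the palindrome nor an arm in their windows, which says nothing of sites elsewhere.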

How the data were processed

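The deposited log2 values were made by the authors with Trimmomatic, TopHat on mm10 and Cufflinks. Genes at 0 in 8 or more of the 16 mice were removed, log2(1 + FPKM) was taken and the 2 batches were adjusted with ComBat. Versions, the annotation and the covariates given to ComBat are not given in the sources used here. After the batch step 915 values lie below 0.

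The deposited values were fitted with limma 3.58.1 (lmFit and eBayes) in R 4.3.3, each comparison on its 2 groups and the difference of age effects on all 16 mice, with Benjamini-Hochberg adjustment over all 18167 genes. Correlations, with 100000 permutations within groups, used Python 3.11.15, NumPy 2.4.6, SciPy 1.17.1 and pandas 2.3.3, and figures used matplotlib 3.10.9. Gene positions and lengths are from GENCODE M21. The code was tested on simulated data and recovered nearly all of the differences put into them. These differences were large and were put only into genes with little spread within groups. The test therefore does not show how often differences like those of the members would be called.

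The members and lists were chosen with earlier results of these data known. Results for 2 of the listed genes are not reported here, and list counts are without them. Named genes are all members, and from each list those past both thresholds in WO vs. MO or MY vs. MO (at most the 4 largest in WO vs. MO), else the 2 most abundant. To these come the 5 genes most like *Fkbp5*, the 5 most like the mean of 7 targets, *Xist*, *Ddx3y*, *Pfn1*, markers that define a cell type where they lay near 0, and the few said to be picked after their values were seen, with all markers of a cell type where their r is given. Alternatives planned were batch 1 mice alone, batch as a term, genes with a mean of at least 1, quantile normalization, pseudocount 0.1, all 4 groups in 1 fit, an intensity trend in the prior, a lowess trend on transcript length removed (span 0.3), a block for the replicate number, and single mice left out in turn. Leaving mice out of the correlations and likeness, and the alternatives for the lists of other induced and repressed targets, were added after the data were seen.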

Additional observations from a re-analysis of the deposited data

Results flagged for a closer look

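Library MO5 lay far from the other 4 MO mice for *Xist* (3.21) and for *Ddx3y* (1.95). The 8 members, *Xist* and *Ddx3y* were looked at in the 2 groups of 5 mice, 20 in all, for 1 mouse apart from the rest by Dixon's test, of which chance picks about 1 in 20, and 2 were found. No member was among them.

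Of 50 named genes, 20 had a difference of age effects, MY to MO against WY to WO, at a limma FDR at or below 0.05, and none of them was a member. Over all genes the share was 17.7%, and the named genes were in large part those called in comparisons that share the MO mice. In log2 units these were *Cebpd* 1.74, *Mt1* 1.59 and *Mt2* 1.35 among induced targets, *Icam1* 1.65, *Ccl2* 1.41, *Il1b* 0.58 and *Mmp9* -0.73 among repressed targets, *Hsp90ab1* -0.30 of the receptor's chaperones, and *Ucp2* 1.30, *Egr2* 0.79, *Junb* 0.67 and *Fabp4* 0.71 of the fasting, immediate early and adipocyte lists. Among cell markers they were *Aif1* 2.09, *Csf1r* 1.15, *Cx3cr1* 1.10 and *Tmem119* 0.46 of microglia, *Aqp4* 1.09 and *Aldh1l1* 0.76 of astrocytes and *Chat* -0.85 and *Nefl* -0.88 of neurons. Whether these go with the cell markers was not tested.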

How the results depend on the processing

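Of the members' log2 fold changes under alternative settings, 318 kept their direction and their side of the FDR threshold, 14 passed it anew and 4 changed sign. With 1 mouse left out in turn, 352 stayed so, 7 passed anew and 25 changed sign. The members called (by both thresholds and by FDR alone alike, 0 of 8 with the fits as reported) numbered in WO vs. MO 1 with all 4 groups in 1 fit (*Pdk4*, limma FDR 0.0422), and in MY vs. MO 2 in batch 1 mice alone, 2 with batch as a term (*Pdk4* and *Plin4*, FDR 0.0365 and 0.0417) and 1 with all 4 groups in 1 fit (*Pdk4*, FDR 0.0184). In WY vs. WO 1 was called with batch as a term (*Plin4*, FDR 0.0444). With 1 mouse left out, the counts ran from 0 to 2 in WO vs. MO and from 0 to 3 in MY vs. MO, by both rules, highest without MO4. In WY vs. WO, WY vs. MY and the difference of age effects they were 0 throughout.

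Sign changes were those of *Sgk1* (-0.0512) and *Zbtb16* (0.0338) in WO vs. MO with batch 1 mice alone, and of *Nr3c1* with the transcript length trend removed, in WO vs. MO (0.0108) and for the difference of age effects (0.00978). With 1 mouse left out, values in WO vs. MO ran for *Sgk1* from -0.0781 to 0.565, *Zbtb16* from -0.190 to 0.136 and *Nr3c1* from -0.0781 to 0.0265. In WY vs. WO *Zbtb16* ran from -0.167 to 0.131. In WY vs. MY *Tsc22d3* ran from -0.0270 to 0.139, *Sgk1* from -0.0600 to 0.695, *Hif3a* from -0.137 to 0.127 and *Nr3c1* from -0.0366 to 0.116. For the difference of age effects *Sgk1* ran from -0.455 to 0.2997, *Plin4* from -0.217 to 0.577 and *Nr3c1* from -0.141 to 0.0118. None of these values had passed a threshold, and the cause was not tested.

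Of the 7 relations of *Fkbp5*, 5 passed at a BH-adjusted permutation p of 0.05 after quantile normalization, and 5 in batch 1 mice alone (*Tsc22d3* in place of *Nr3c1*) and without the MO mice (*Tsc22d3* in place of *Sgk1*), 2 passed without MO1 and MO4, and 2 to 5 passed with 1 mouse left out, fewest without MO1. The count of other induced targets higher in MO was 6 of 24 in WO vs. MO and 3 in batch 1 mice alone, and 4 in MY vs. MO against 7 in batch 1 mice alone and 6 with batch as a term or with all 4 groups in 1 fit. Of the repressed targets 3 were higher in WO vs. MO and 1 among genes with a mean of at least 1, a filter that keeps 3 of the 9.

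Over all genes, calls by both thresholds went from 836 to 1529 in WO vs. MO, from 890 to 1483 in MY vs. MO and from 1020 to 1548 for the difference of age effects with pseudocount 0.1, from 46 to 73 in WY vs. WO in batch 1 mice alone and to 80 with batch as a term, and from 1 to between 2 and 4 in WY vs. MY under 4 of the alternatives. By FDR alone WO vs. MO went from 5075 to 2612 in batch 1 mice alone, and WY vs. WO from 204 to 85 with pseudocount 0.1. With 1 mouse left out, calls by FDR alone ran from 2586 to 5130 in MY vs. MO (4646 with all mice), from 9 to 182 in WY vs. WO and from 1 to 5 in WY vs. MY. By both thresholds they ran from 7 (without WY3) to 64 (without WO4) in WY vs. WO, against 46 with all mice, and from 1 to 5 in WY vs. MY. The cause was not tested.

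With the replicate number as a paired term (replicate block), members called were 2 in WO vs. MO (*Pdk4*, limma FDR 0.0357, and *Plin4*, FDR 0.0443), 3 in MY vs. MO (also *Sgk1*, FDR 0.00131) and 2 in WY vs. WO (*Sgk1* and *Plin4*), by both rules, and other induced targets higher in MY vs. MO were 8. Of all 18167 genes the block called 840, 1108 and 63 by both thresholds in these 3 comparisons. By FDR alone it called 4115, 3746 and 68. Over all genes, r between the deviations of mice with the same number ranged from -0.207 to 0.377. This cannot decide whether the numbers pair the mice, since what the numbers stand for is not given in the sources used here. WY vs. MY has no batch alternatives, as all its mice are in batch 1, and the difference of age effects has none with all 4 groups in 1 fit, as it is such a fit. Groups of 3 and 5 mice limit the tests, the deposited values show no read depth, batch 2 holds no young mouse, and MO5 went against its label.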
